A study of Danio rerio with 4 samples.

Results

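The genes described here encode 10 proteins that vertebrate liver makes, most of them for release into the blood plasma: tfa, hpx, ttr, ahsg1, fetub, serpina1, ambp, itih3a.1, crp5 and ces3. They were chosen with earlier results of these data known, so the calls and ranks below describe them and do not test a blind choice. By their symbol, 9 of them were found among the 31953 Ensembl genes of the zebrafish count table. The tenth, hpx, is a RefSeq synonym of the gene that the symbol table calls hpxa, and it was taken from that row. The libraries compare zebrafish larvae of genotype uhrf1(hi272) with siblings that looked normal, both at 5 days after fertilisation. Uhrf1 recruits the maintenance DNA methyltransferase Dnmt1 to replicated DNA. Each group has 2 libraries, described in the labels as total RNA of pooled entire larvae, depleted of ribosomal RNA. Larvae were sorted by appearance, so individual genotypes within the sibling pools are not known from the labels. The labels mention independent clutches but do not say which library came from which, so a p-value here reflects only how far these 4 libraries spread.

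Hepatocytes release most of the proteins that circulate in plasma, where they carry iron, heme and hormones, keep mineral in solution, hold proteases in check and mark damaged cells and microbes. In zebrafish the liver forms in the first days of life and takes over this secretion while the yolk is used up, and the yolk syncytial layer, which feeds the embryo, makes some of the same proteins. Plasma protein transcripts are among the most abundant RNAs of a hepatocyte and are read in whole larvae as signs of liver tissue.

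Reads on genes numbered 571978 and 564941 in the mutant pair, and 613370 and 812167 in the sibling pair. The tissues seen in these libraries differed beyond the liver, and the sibling libraries went against their label of entire larvae. A list of 20 skeletal muscle symbols gave 12 matched markers, of which 12 were tested and 12 were higher in mutants. Their summed share was 5.56% and 4.99% in mutant libraries against 0.0272% and 0.0124% in sibling libraries. A list of 11 neuron symbols gave 5 matched markers. All 5 were at 0 in sibling replicate 1 and 4 of them in sibling replicate 2, against 357 and 354 reads in the mutants. Exocrine pancreas markers took 19.4% of gene reads in sibling replicate 2 and at most 0.0724% in each other library. The part of this difference in tissue makeup in the results below was not tested. In the count table the sibling columns are headed ABNYU, unlike the mutant columns, which carry the number of the allele. Tissue content and genotype cannot be told apart here, so each ratio below compares these libraries, whatever tissues the sibling RNA came from. In bulk RNA, fewer liver cells and less of these RNAs per liver cell cannot be told apart either.

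Of every read assigned to a gene in siblings, the 10 plasma protein genes made up 5.10% in replicate 1 (Wilson 95% interval from 5.05% to 5.16%) and 4.58% in replicate 2 (4.53% to 4.62%). For mutants this share was 0.0344% in replicate 1 (0.0300% to 0.0396%) and 0.0243% in replicate 2 (0.0205% to 0.0287%). The mean share was 165-fold higher in siblings, and 93.7-fold higher over the 9 genes other than tfa. Sibling libraries held reads of all 10 genes, mutant replicate 1 of 6 and mutant replicate 2 of 8. These intervals cover counting error only.

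All 10 genes passed the filter on low counts, which their sibling reads alone satisfied, and 10 of 10 were lower in mutants (quasi-likelihood test of edgeR, p adjusted by Benjamini-Hochberg between 4.03e-08 and 7.18e-08). Of all 8133 genes tested, 25.9% were called lower and 35.2% higher. The median log2 fold change, mutant over sibling, was -9.78 for the 10 genes and 0.48 for all genes tested. It was -9.50 with the genes that had no mutant read set to their lower bound. By size of the fitted decrease, 7 of the 10 were among the 100 lowest of the 8133 genes and 10 among the 500 lowest. In what follows CPM is the count scaled to a library size of 1e6 reads after TMM scaling, ± is the SD over 2 libraries for a CPM and the standard error for a log2 fold change, and a ratio is siblings over mutants with an exact 95% interval that covers counting error only. A fold against a group with no read takes 3 reads over both its libraries as the floor. Ratios and bounds hold for TMM scaling only. Decreases of the 10 genes were smaller with scaling by total gene reads or by ribosomal protein genes, with medians of -8.10 and -7.18. In 1 library, 3 reads equal 3.25 CPM in mutant replicate 1 and 3.22 in mutant replicate 2.

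**Figure D1:**
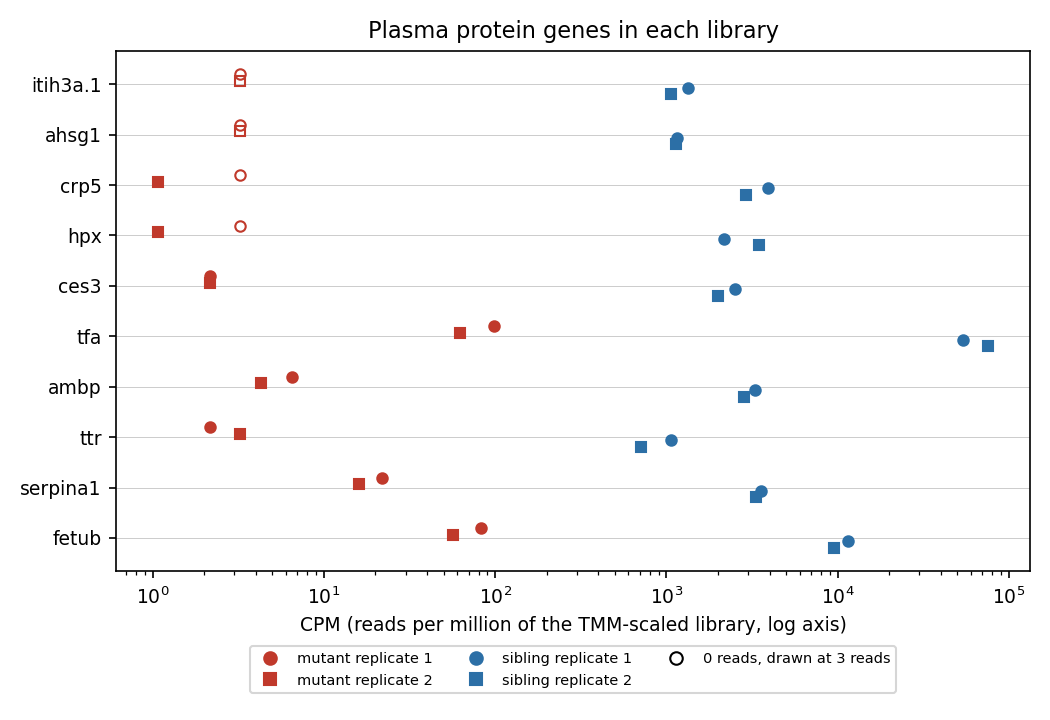
CPM of each gene in the 4 libraries on a log axis, with genes in the order of their fitted log2 fold change; open symbols mark libraries with 0 reads, drawn at the CPM of 3 reads. For all 10 genes both sibling libraries lie to the right of both mutant libraries. The share of all tested genes that separate in this way was not counted, so the separation is a description only. A different measure, the share of all tested genes called lower, was 25.9%.

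Transferrin, the iron carrier of plasma, is encoded by tfa (ENSDARG00000016771). Its row held 91 and 58 mutant reads against 19982 and 27405 sibling reads, which is 80.5 ± 25.8 and 64840 ± 15310 CPM. The decrease was -9.65 ± 0.56 on the log2 scale, a ratio of 805 (686 to 952), with an adjusted p of 4.03e-08 (edgeR, Benjamini-Hochberg). In siblings tfa alone took 3.26% and 3.37% of gene reads.

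Hemopexin binds heme that is set free from broken red cells and carries it to the liver. The hpx row (ENSDARG00000012609) had 0 and 1 mutant reads against 803 and 1258 sibling reads. Its level in siblings was 2822 ± 921 CPM, and the ratio was 5218 with an interval of 936 to 206200, which is wide because it rests on 1 mutant read. The log2 fold change was -11.91 ± 0.69 (edgeR, Benjamini-Hochberg adjusted p = 4.03e-08).

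Transthyretin, encoded by ttr (ENSDARG00000037191), carries thyroid hormone. It had the fewest sibling reads of the 10 genes, 394 and 258, and 2 and 3 reads in mutants. Levels were 889 ± 250 CPM in siblings and 2.70 ± 0.74 CPM in mutants. Mutant values lay at or below what a count of 0 allows, so the ratio of 330 has an interval from 141 to 1020, and the log2 fold change was -8.26 ± 0.48 (edgeR, Benjamini-Hochberg adjusted p = 4.03e-08).

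Fetuins are cystatin-related plasma glycoproteins: fetuin-A keeps calcium phosphate from precipitating, and fetuin-B inhibits a protease that acts on the egg coat in mice. The fetuin-A gene ahsg1 (ENSDARG00000026764) had no read in either mutant library, against sibling counts of 429 and 413. With TMM scaling its level was at least 711-fold lower in mutants by the floor of 3 reads. The exact interval of the ratio for ahsg1 had a lower limit of 577. Its neighbour fetub (ENSDARG00000053973) kept 76 and 53 mutant reads against 4274 and 3450 sibling reads, or 69.7 ± 18.1 and 10540 ± 1435 CPM. With a ratio of 152 (127 to 182) and a log2 fold change of -7.24 ± 0.48, fetub had the smallest decrease of the 10 (edgeR, Benjamini-Hochberg adjusted p = 7.18e-08). The upper end of its interval is below both limits for ahsg1.

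Protease control is the role of serpina1, ambp and itih3a.1. The alpha-1-antitrypsin gene serpina1 (ENSDARG00000090286), whose product inhibits neutrophil elastase, had 20 and 15 mutant reads against 1323 and 1203 sibling reads. Levels of 18.9 ± 3.96 and 3449 ± 181 CPM gave a ratio of 183 (131 to 263) and a log2 fold change of -7.50 ± 0.45 (edgeR, Benjamini-Hochberg adjusted p = 4.22e-08). This was the second smallest decrease, and its interval overlaps that of fetub.

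The ambp gene (ENSDARG00000004296) encodes a precursor that is cleaved into alpha-1-microglobulin, a scavenger of heme and radicals, and bikunin, the protease inhibitor of the inter-alpha-trypsin inhibitor complex. It had 6 and 4 mutant reads against 1214 and 1032 sibling reads, or 5.40 ± 1.57 and 3066 ± 306 CPM. The ratio was 569 (309 to 1187). Heavy chains of the same complex are bound to bikunin through a chondroitin sulfate chain, and itih3a.1 (ENSDARG00000055036) encodes one of them. No mutant read fell on it, while siblings had 495 and 383. With TMM scaling it was at least 741-fold lower by the same floor, with an exact lower limit of 601. Thus the light chain and heavy chain genes of the complex were both lower, with adjusted p = 4.03e-08 for each (edgeR, Benjamini-Hochberg).

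C-reactive protein is a pentraxin that binds phosphocholine on microbes and dying cells and in mammals rises with inflammation. The crp5 gene (ENSDARG00000056498) had 0 and 1 mutant reads against 1449 and 1061 sibling reads, where its level was 3423 ± 699 CPM. The ratio of 6355 (1140 to 251100) rests on 1 read, as it does for hpx, and the log2 fold change was -12.19 ± 0.68 (edgeR, Benjamini-Hochberg adjusted p = 4.03e-08).

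Carboxylesterases cleave ester bonds of lipids and drugs, and several of them in mammalian liver stay within the endoplasmic reticulum and do not circulate. The ces3 gene (ENSDARG00000041595) had 2 reads in each mutant library and 925 and 721 in siblings. It was at 2.16 ± 0.0163 and 2246 ± 361 CPM, with a ratio of 1042 (406 to 3828). Its decrease of -9.90 ± 0.51 ranked first by p among all genes tested (edgeR, Benjamini-Hochberg adjusted p = 4.03e-08).

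The make-up of the plasma protein reads differed between the groups. Reads of tfa were 46.2% (Wilson 95% interval 39.4% to 53.2%) and 42.3% (34.4% to 50.7%) of all reads on the 10 genes in mutants, and 63.9% (63.3% to 64.4%) and 73.7% (73.3% to 74.1%) in siblings. The share of fetub was 38.6% (32.1% to 45.5%) and 38.7% (30.9% to 47.0%) in mutants against 13.7% (13.3% to 14.0%) and 9.28% (8.99% to 9.58%) in siblings. For serpina1 it was 10.2% and 10.9% against 4.23% and 3.24%. Thus fetub and serpina1 made up more of the remaining reads, and the intervals of fetub and tfa do not overlap between groups. These intervals cover counting error only, and for both genes they do not overlap between the 2 sibling libraries either.

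A large share of one gene lowers the others, so the shares were also taken over the 9 genes without tfa. There fetub had 71.7% (62.5% to 79.4%) and 67.1% (56.1% to 76.4%) in mutants and 37.8% (36.9% to 38.7%) and 35.3% (34.3% to 36.2%) in siblings. Without tfa the share of serpina1 was 18.9% (12.6% to 27.4%) and 19.0% (11.9% to 29.0%) in mutants, and 11.7% and 12.3% in siblings. The interval of mutant replicate 2 covers the value of sibling replicate 2 but not that of sibling replicate 1. With 2 libraries a group an exact permutation test cannot give a two-sided p below 0.333, so these shares are descriptions. Over the 9 genes, the shares in mutant replicates 1 and 2 rest on 106 and 79 reads. For ahsg1 and itih3a.1, at 0 mutant reads, the upper ends of the Wilson interval were 3.5% and 4.64% there. With tfa included, the mutant shares rest on 197 and 137 reads, and these upper ends were 1.91% and 2.73%.

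**Figure D2:**
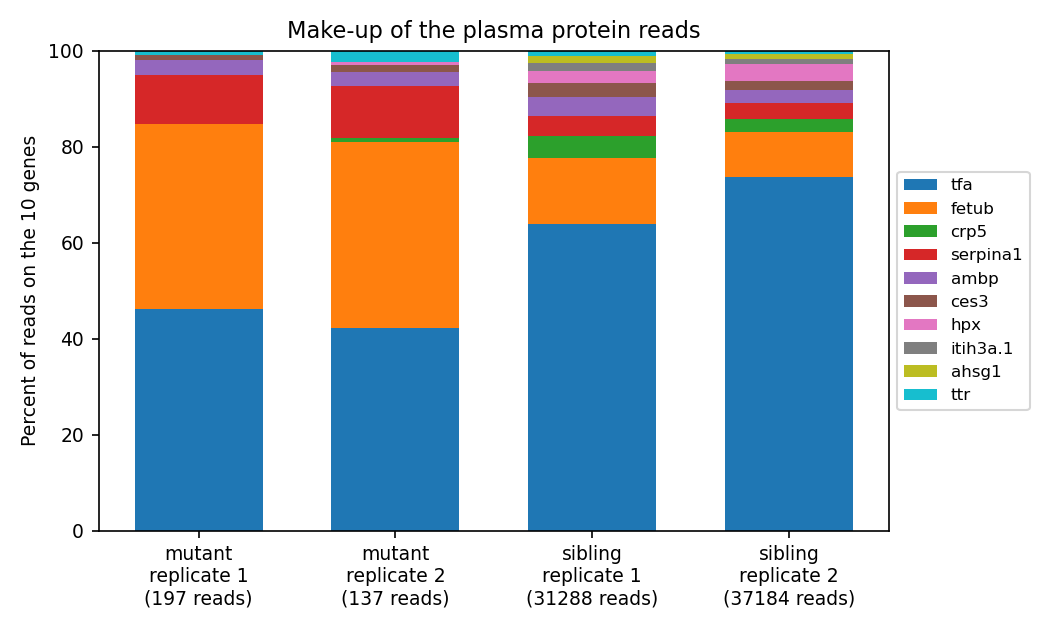
Percent of the reads on the 10 genes that each gene takes in each library; totals are under the bars. The fetub segment is 38.6% and 38.7% in mutants against 13.7% and 9.28% in siblings.

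The 2 sibling libraries did not hold these genes at the same levels. In CPM, tfa was 1.40 times and hpx 1.60 times as high in sibling replicate 2 as in replicate 1, and the other 8 were lower, from 0.669 times for ttr to 0.983 times for ahsg1. Counts of the 10 genes differed between siblings by a chi-square of 121 per degree of freedom, against 35.5 over all genes with at least 10 reads. In the mutant pair it was 2.94 over the 4 genes with that many reads and 1.31 over all genes. This statistic grows with the number of reads on a gene, so these values do not compare relative spread between the 10 genes and all genes. As a share of all gene reads, which leaves out TMM scaling, tfa was 1.04 times and hpx 1.18 times as high in sibling replicate 2 as in replicate 1, and the other 8 ran from 0.495 times for ttr to 0.727 times for ahsg1. With TMM scaling, the smallest ratio between groups was 152, for fetub. As a share of all gene reads, fetub was at 0.697% and 0.425% in siblings against 0.0133% and 0.00938% in mutants.

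Relatives of these genes, taken by family name and not by their values, show which family members carried the reads. The family counts below include the chosen genes themselves, and 25.9% of all tested genes were called lower. Where genes are near copies, reads may have been split between them, and how such reads were counted is not given in the sources used here. In RefSeq's gene order on assembly GRCz12tu, fetub lies beside ahsg1, itih3a.2 beside itih3a.1, serpina1l beside serpina1, ces2a beside ces3, and crp2, crp3, crp4, crp6 and crp7 lie close to crp5.

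All 3 fetuin genes tested, with ahsg1 and fetub among them, were lower. The relative ahsg2 had 0 and 2 mutant reads against 879 and 1035 sibling reads. Of 7 inter-alpha heavy chain genes, 4 were tested and 4 were lower, itih3a.1 included. The largest counts were those of itih3b.2, with 32 and 12 mutant reads against 3277 and 2620 sibling reads. In contrast itih3a.2, the neighbour of itih3a.1, had 3 and 0 reads in mutants and none in siblings, and it was not tested. Also untested were ITIH5 and itih6, each with 6 reads in all in mutants and none in siblings.

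The C-reactive protein genes were unequal in reads. Besides crp5, only crp3 passed the filter, with 5 and 0 mutant reads against 296 and 259 sibling reads (log2 fold change -8.03 ± 0.66, edgeR, Benjamini-Hochberg adjusted p = 2.46e-06). The genes crp1 and crp2 had 4 and 5 reads over all libraries, and crp6 and crp7 had none. The second hemopexin gene hpxb had 6 and 1 mutant reads against 76 and 114 sibling reads, with a log2 fold change of -6.03 ± 0.54 (edgeR, Benjamini-Hochberg adjusted p = 9.71e-07).

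Among 5 serpina genes tested, 4 were lower, serpina1 included. The tandem copy serpina1l had 9 and 5 reads against 1013 and 1280, and serpina7, which in mammals encodes thyroxine-binding globulin, 2 and 0 against 504 and 492. The exception was serpina10a, a relative of the mammalian inhibitor of coagulation factor X, with 43 and 44 mutant reads against 24 and 20 sibling reads. Its log2 fold change was -0.35 ± 0.34 (edgeR, Benjamini-Hochberg adjusted p = 0.377). When libraries were scaled by total gene reads serpina10a was at 1.34 (adjusted p = 0.00688, edgeR), and by ribosomal protein genes at 2.27 (adjusted p = 0.000231, edgeR), higher in mutants in both. In both fits serpina10a was below the median of all tested genes, 2.17 and 3.10. Its paralog serpina10b had 1 and 2 reads against 72 and 44.

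Of the carboxylesterases, ces2a had 26 and 14 mutant reads against 2709 and 2128 sibling reads, a log2 fold change of -8.24 ± 0.52. The decrease of ces2b was smaller, at -4.36 ± 0.36, with 34 and 25 reads against 282 and 201. Both were lower with adjusted p of 5.31e-08 and 4.54e-07 (edgeR, Benjamini-Hochberg). The interval of the ratio was 15.8 to 27.6 for ces2b, 225 to 429 for ces2a and 406 to 3828 for ces3.

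**Figure D3:**
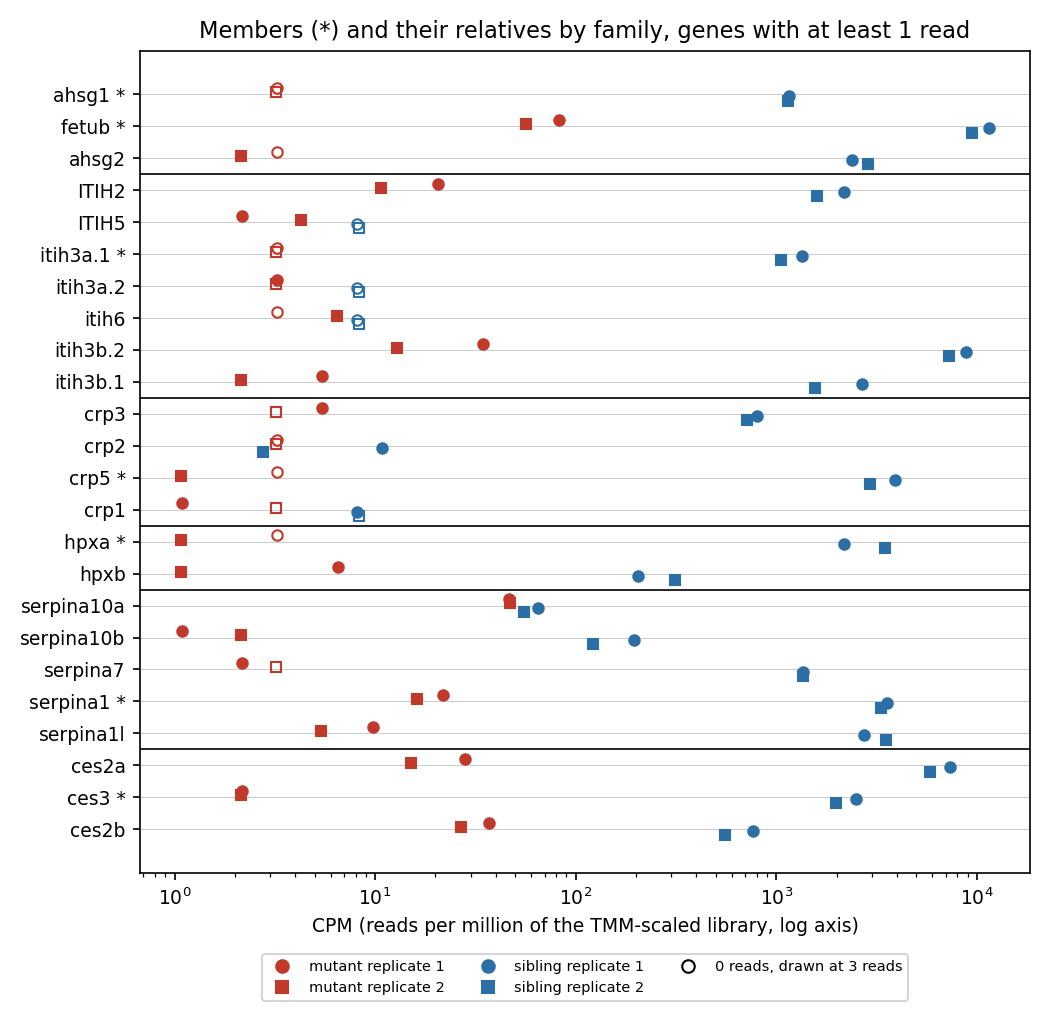
CPM of the members, marked by an asterisk, and of their relatives with at least 1 read, by family, on a log axis; open symbols are 0 reads drawn at the CPM of 3 reads. In serpina10a the 4 libraries lie close together, and for itih3a.2, ITIH5 and itih6 both siblings are at 0.

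A wider list of 46 symbols of other plasma proteins, which holds most of the relatives above, matched 28 genes. Of these, 18 were tested, 17 were lower and 0 higher in mutants. The tested gene that did not pass was serpina10a. The list median was -7.88, with a range from -11.79 to -0.35. The gene at the lower end, serpinf2b, had no mutant read. The vitamin D carrier GC had 4 and 2 mutant reads against 1007 and 701 sibling reads, a ratio of 721 (330 to 1967). The antiplasmin genes serpinf2a and serpinf2b had 1 and 0 mutant reads in all against 601 and 502 in siblings. With TMM scaling serpinf2b was at least 424-fold lower. Each of these 3 had an adjusted p of 4.03e-08 (edgeR, Benjamini-Hochberg).

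Enzymes and other proteins that stay inside hepatocytes were lower in 16 of 16 tested genes of 22 matched, with a median of -6.65 and a range from -10.51 to -2.99. In both lists sibling reads alone could satisfy the filter, and 25.9% of all tested genes were called lower. Untested genes of this list had few reads and went either way. ASS1 had 7 and 3 mutant reads against 1 and 0 in siblings, and ARG1 had 2 and 0 against 13 and 0. The urate oxidase gene uox and the liver glycogen synthase GYS2 were at -8.64 ± 0.47 and -8.66 ± 0.49. The tyrosine breakdown enzyme hpda was at -7.23 ± 0.42 and the glycolate oxidase HAO1 at -7.26 ± 0.44. These 4 had adjusted p between 4.03e-08 and 4.40e-08 (edgeR, Benjamini-Hochberg). Each list's fitted range overlaps that of the 10 plasma protein genes, -12.60 to -7.24, whose lowest gene, itih3a.1, had no mutant read.

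Ratios within a library do not depend on how libraries are scaled. Per 100 reads of the hepatocyte intracellular list there were 26.3 and 28.2 reads of the 10 plasma protein genes in mutants and 86.1 and 123 in siblings. Without tfa these numbers were 14.2 and 16.3 in mutants and 31.1 and 32.3 in siblings. Per 100 reads of the other plasma proteins there were 26.0 and 22.7 in mutants and 137 and 204 in siblings. The order turned against fabp10a, the liver fatty acid binding protein: per 100 of its reads there were 438 and 1250 plasma protein reads in mutants and 176 and 253 in siblings, where the mutant values rest on 45 and 11 fabp10a reads. This gene, which ranked 11 by p in the intracellular list, had the largest decrease there, -10.51 against a median of -9.78 for the 10 genes. No other single gene was set against the 10 genes in this way, and the cause of the turn was not tested. The groups did not overlap in any of these 4 ratios, but ratios of other gene sets were not taken for comparison. The direction depended on the genes compared.

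**Figure D4:**
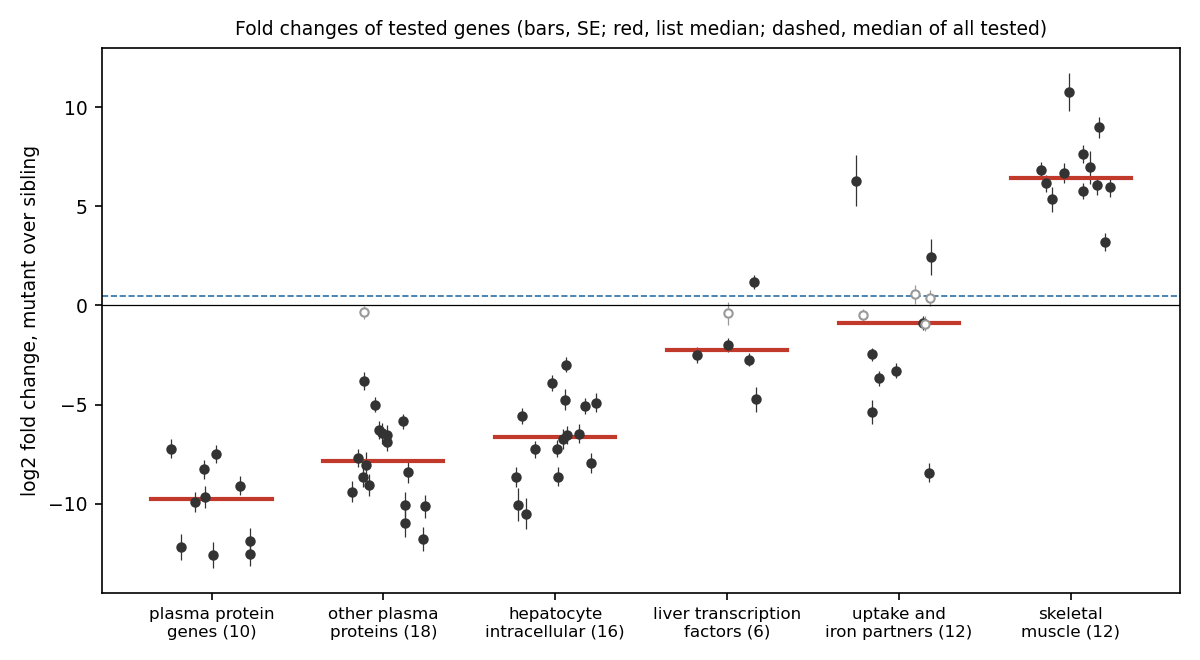
Log2 fold changes, mutant over sibling, of tested genes in each list with their standard errors; filled points passed the threshold, red bars are list medians and the dashed line is the median of all tested genes, 0.48. The fitted values of all 10 plasma protein genes lie between -12.60 and -7.24, while the 12 muscle genes lie above 0. The lowest of the 10, itih3a.1, had no mutant read.

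Transcription factors that act in liver were sparsely read. Of 15 matched genes, 6 passed the filter, 4 were lower and 1 higher, where 25.9% of all tested genes were called lower and 35.2% higher. The nuclear receptor HNF4A had 8 and 1 mutant reads against 69 and 30 sibling reads, at -4.74 ± 0.64 (edgeR, Benjamini-Hochberg adjusted p = 0.000128). CEBPD, NR5A2 and CEBPB were at -2.74 ± 0.33, -2.50 ± 0.40 and -2.00 ± 0.37 (adjusted p = 1.57e-05, 0.000146 and 0.000487, edgeR). STAT3, named after its value was seen, which passes on interleukin-6 signals to acute phase genes, was higher at 1.19 ± 0.38 (adjusted p = 0.0147, edgeR). Total-read scaling gave 2 lower and 2 higher calls in this list and ribosomal protein scaling 1 and 2. Over all 8133 genes tested, these fits called 1015 lower and 5585 higher, and 657 lower and 6425 higher. With scaling by ribosomal protein genes HNF4A was the only one of the 4 still called lower, at -2.21, and CEBPD, NR5A2 and CEBPB were at -0.12, 0.13 and 0.66. With no count filter HNF4A missed the threshold, at -4.42 (adjusted p = 0.0505, edgeR). With DESeq2 this list held 0 higher calls, so STAT3 was not called higher there. Left without mutant replicate 1, NR5A2 and CEBPB missed the threshold (adjusted p = 0.0529 and 0.0618, edgeR), without mutant replicate 2 CEBPB did (0.0862), and STAT3 did so without either mutant library or sibling replicate 1 (0.0556 to 0.119).

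Receptors and partners that take up plasma proteins or handle iron were mixed: of 12 tested, 6 were lower and 2 higher. Of all genes tested, 25.9% were called lower and 35.2% higher. The asialoglycoprotein receptor gene asgrl1, whose product clears plasma glycoproteins in liver, had 2 and 1 mutant reads against 245 and 216 sibling reads, at -8.44 ± 0.46 (edgeR, Benjamini-Hochberg adjusted p = 4.03e-08). TFR2, the transferrin receptor of liver, had 1 read in each mutant and 20 and 18 in siblings, at -5.36 ± 0.60. The metalloreductase STEAP4 and the iron transporter slc11a2 were at -3.67 ± 0.38 and -3.28 ± 0.38, and the adjusted p of these 3 lay between 3.42e-06 and 8.91e-06 (edgeR, Benjamini-Hochberg). With ribosomal protein scaling slc11a2 did not pass, at -0.64 (adjusted p = 0.163, edgeR). Under total-read scaling the list held 5 lower and 6 higher calls, and under ribosomal protein scaling 3 and 7. Over all 8133 genes tested, these fits called 1015 lower and 5585 higher, and 657 lower and 6425 higher. The ferritin heavy chain gene fth1a, named after its value was seen, was lower at -2.46 ± 0.33 (adjusted p = 3.72e-05, edgeR), but was at 0.21 with ribosomal protein scaling and missed the threshold without mutant replicate 1 (0.0509).

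Transferrin receptors of dividing and red cells, named after their values were seen, showed less: tfr1a was at 0.56 ± 0.47 (adjusted p = 0.312, edgeR) and tfr1b at -0.88 ± 0.35 (adjusted p = 0.0445, edgeR). With total-read scaling tfr1b turned to 0.85 and with ribosomal protein scaling to 1.79, both past the threshold. In both fits tfr1b was below the median of all tested genes, 2.17 and 3.10. Without any 1 library tfr1b did not pass (adjusted p from 0.0532 to 0.435, edgeR).

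The 2 higher genes, also named after their values were seen, were STRA6, a receptor for the retinol carrier of plasma, with 12 and 16 reads in mutants and none in siblings, at least 3.69-fold higher by the floor of 3 reads over both sibling libraries, and stab2, a scavenger receptor of endothelium, at 2.45 ± 0.89 (adjusted p = 0.0305, edgeR). Left without 1 library at a time stab2 did not pass (adjusted p from 0.105 to 0.414, edgeR). STRA6 did not pass without mutant replicate 1 (0.157) or sibling replicate 1 (0.0516), and it was not tested without mutant replicate 2. The exact interval of its ratio, siblings over mutants, ran from 0 to 0.357. With no count filter the list of receptors and partners held 0 higher calls, and with DESeq2 it held 1.

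The genes outside the 10 whose profile over the 4 libraries lay closest to their mean profile, by Euclidean distance of centred log2(CPM + 1), were serpinf2b at 0.119, shbg, which binds sex steroids, at 0.165, si:ch73-15n24.1 at 0.198, COMTD1 at 0.207 and CETP, which moves cholesteryl esters between lipoproteins, at 0.324. All 5 had 0 reads in both mutant libraries, and shbg had 220 and 233 reads in siblings. Among the 10, ces3 lay closest at 0.221 and fetub farthest at 2.12. A profile over 4 libraries mainly reflects the size of the group difference.

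Scaling moved the whole distribution of genes. With TMM, 2104 genes were lower and 2861 higher. With total-read scaling the counts were 1015 and 5585, with a median of 2.17 over all tested genes, and with ribosomal protein scaling 657 and 6425, with a median of 3.10. The median of the 10 genes was -8.10 and -7.18 in these fits. All 10 remained lower in every fit, and the smallest decrease, fetub with ribosomal protein scaling, was -4.64.

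**Figure D5:**
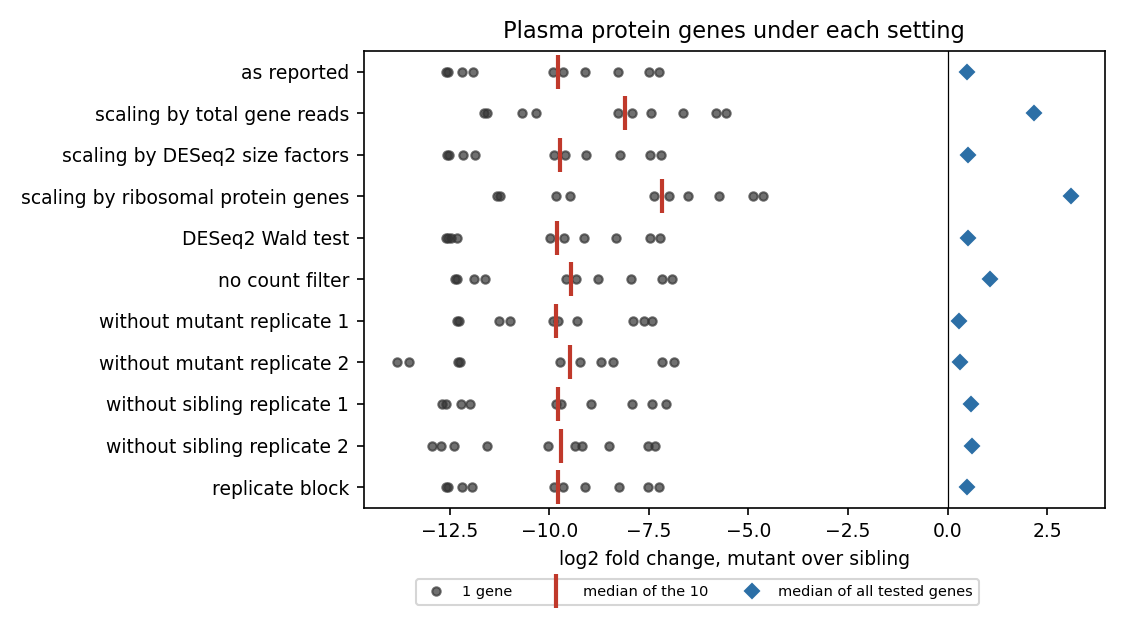
Log2 fold changes of the 10 plasma protein genes (points), their median (red bar) and the median of all tested genes (blue diamond) as reported and under each alternative. The 10 genes stay at or below -4.64 and the median of all tested genes lies between 0.29 and 3.10.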

How the data were processed

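The authors deposited raw read counts per Ensembl gene, in a single table, per the file headers. TopHat2, HTSeq, DESeq2 and GRCz10 are listed, with neither role nor version, per the submitters' processing notes. Settings, strand use and the treatment of multiply mapped reads are not stated there, so overlapping, antisense and near-identical genes cannot be told apart. Repeat counts were not used. Symbols came from an Ensembl table, with 26121 of 31953 genes matched, and RefSeq synonyms.

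All genes were fitted together with edgeR 4.0.16 (quasi-likelihood test, robust, R 4.3.3) after filterByExpr on the groups and scaling by TMM, and genes with Benjamini-Hochberg adjusted p under 0.05 were called. TMM factors were 1.78 and 1.83 for mutants and 0.63 and 0.485 for siblings. Ratios set pooled reads over scaled library sizes. The method was tested on simulated data. The members and lists were chosen with earlier results of these data known. The text names the members, up to 4 genes of each list by smallest p and the 5 tested genes nearest to the mean member profile. Relatives were found by symbol. List symbols without a matching gene were left out. Alternatives were 3 other scalings, with 80 ribosomal protein genes for one, DESeq2 1.42.0, no count filter, each library left out, and a replicate block. Standard errors are the size of the log2 fold change over the root of F. Sequences and promoter motifs were not analysed here.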

Additional observations from a re-analysis of the deposited data

How the results depend on the processing

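All 10 plasma protein genes were lower under each of the 10 alternatives, with gene values from -13.81 to -4.64 and adjusted p of at most 0.0212. The lowest value, for crp5 without mutant replicate 2, is a fitted one with no mutant read left. The median of the 10 genes was -7.18 with ribosomal protein scaling and -9.84 to -9.48 with 1 library left out. The calls over all genes fell from 4965 to 3002 with no count filter and ranged from 1264 to 4632 with 1 library left out. Liver transcription factor calls, 5 as reported, were 3 with ribosomal protein scaling and 2 to 9 with 1 library left out. Calls among uptake partners, 8 as reported, were 5 with no count filter and 4 to 8 with 1 library left out. The cause was not tested. The sibling share of the 10 genes was 5.39% when exocrine pancreas reads were left out of the total. With 1 library left out it was 4.58% to 5.10%, and the mutant share was 0.0243% to 0.0344%. A fit that leaves 1 library in a group assumes that it varies like the other group. Deviations of same-numbered libraries from their group means had a correlation of 0.0305 across 8133 genes. From 2 libraries a group this cannot tell whether same-numbered libraries share a clutch. With the replicate block 10 of the 10 genes were lower, with a median of -9.78, among 4569 calls. Depth limits the genes with at most 1 mutant read, ahsg1, itih3a.1, crp5 and hpx, whose decrease is a bound or a wide interval.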

Other observations

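Other tissues were read unevenly in the same libraries, and several counts moved with the scaling. Of all 8133 genes tested, 25.9% were called lower and 35.2% higher with TMM scaling, at a median of 0.48. Total-read scaling called 1015 lower and 5585 higher, at a median of 2.17, and ribosomal protein scaling 657 and 6425, at 3.10. Skin markers were higher in mutants in 9 of 11 tested genes, with 6296 and 6112 mutant reads against 1025 and 788 sibling reads. The other 2, krt8 and krt92, were called lower with TMM scaling, and none was with total-read or ribosomal protein scaling. Higher skin calls numbered 6 without mutant replicate 1. Neuron markers were higher in 4 of 4 tested genes. Erythroid markers had 72 and 59 mutant reads against 381 and 3280 sibling reads. Of the sibling reads alas2 held 34 and 2765, and alas2 was not called (adjusted p = 0.144, edgeR). Erythroid calls were lower in 4 of 5 tested genes, in 3 with total-read scaling and in 2 with ribosomal protein scaling. The globin gene hbae3 turned from -1.57 to 0.10 and 1.02 in these fits.

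Intestinal markers were lower in 3 of 4 tested genes and higher in 1, with 2 lower and 2 higher under ribosomal protein scaling. In that fit the median of all tested genes was 3.10. There FABP2 turned from -1.40 to 1.27 (adjusted p = 0.00733, edgeR), and it did not pass with DESeq2, with no count filter or without either mutant library. The others called lower, apoa4b.1 and MTTP, are also used by liver.

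Exocrine pancreas markers had a median of -12.57 and a range from -15.65 to -9.47 over 13 tested genes, of which 2 passed. The genes at both ends, ctrb.3 and amy2al1, had no mutant read. The libraries of the sibling pair differed widely, at 444 and 157273 reads. Calls numbered 17 of 17 without sibling replicate 1, 13 of 13 without sibling replicate 2, 13 of 13 with DESeq2, 10 of 13 with the replicate block and 1 of 17 without either mutant library.

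Markers of endothelium and bile duct had 3 of 8 tested genes lower, 3 higher and a median of -0.08. Total-read scaling left 2 lower and 5 higher, at a median of 1.61. Under ribosomal protein scaling 1 was lower and 5 were higher, at a median of 2.55. In these 2 fits the list medians were below those of all tested genes, 2.17 and 3.10. None was called higher with DESeq2, with no count filter or without either mutant library. Of kidney tubule markers 0 of 2 tested genes passed, 1 of 2 was higher with ribosomal protein scaling, and 2 of 4 were lower without sibling replicate 2. Of pigment epithelium and pigment cell markers 1 of 3 was lower and 2 were higher. Where no other setting is named, counts are from the same fit (edgeR quasi-likelihood test, Benjamini-Hochberg adjustment), and their part in the decrease of plasma protein genes was not tested.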
